A study of Mus musculus with 15 samples.

Results

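The genes described here are 10 transcription factors of the AP-1 and immediate early groups: *Atf3*, the Jun family genes *Jun*, *Junb* and *Jund*, the Fos family genes *Fos*, *Fosl1* and *Fosl2*, the small Maf gene *Maff*, and the zinc finger genes *Egr1* and *Klf6*. They were chosen by name, with earlier results of these data known. All 10 were found among the 57186 genes of the count table and among the 19839 genes that passed the filter on low counts. Their expression was measured by RNA sequencing in RAW 264.7 cells, a mouse macrophage line derived from a leukemia virus-induced tumor. The cells were exposed for 6 h to SNP100 or SNP50, which are solid nonporous silica nanoparticles, to mesoporous MSNPs or to hollow mesoporous HMSNPs, or were left nontreated as controls. The nominal diameters were 100, 50, 100 and 100 nm, and the doses were 50, 25, 200 and 200 µg/mL, which the study set as the highest nontoxic dose of each particle. Each of the 5 groups had 3 libraries. Only MSNP and HMSNP were given at the same dose, so every other contrast between particles is also a contrast between doses.

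AP-1 is a dimer of basic leucine zipper proteins. Jun proteins pair with each other or with Fos proteins, whereas Fos proteins need a Jun partner to bind DNA. Immediate early genes such as *Fos*, *Junb* and *Egr1* are transcribed within minutes of a stimulus, without new protein synthesis, when MAP kinases phosphorylate factors already bound at their promoters, and their mRNAs are short-lived. *Atf3* is induced by many stresses, often through ATF4, and in macrophages it is known as a repressor of inflammatory cytokine genes.

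In MSNP-treated cells the genes split into 2 directions. *Atf3*, *Jun*, *Klf6* and *Maff* rose, by 5.59-, 2.75-, 1.98- and 2.19-fold, and *Fos*, *Fosl2*, *Junb* and *Jund* fell, by 10.3-, 2.83-, 1.97- and 1.80-fold. *Atf3* was the only one of the 10 that rose in all 4 treated groups, and *Jun* rose with every particle but the hollow one. In HMSNP-treated cells *Fos* and *Junb* were not called, *Fosl2* fell by 2.02-fold, and *Egr1* rose. In the model of all 15 libraries, *Atf3* and *Jun* alone were called with SNP100 and with SNP50. DESeq2 called 5 of the 10 with SNP100, and a model of only 6 libraries called 0 with either particle. *Fosl2* was also called lower with both when Control replicate 3 was left out. A gene is called here when edgeR's quasi-likelihood test gave it an adjusted p below 0.05, with Benjamini-Hochberg correction over all tested genes.

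The total count per library lay between 29369934 and 42617812. All 8 macrophage markers examined were detected in every library, between 41.5 and 15072 CPM (counts scaled to a common library size after TMM normalization). The summed levels of 3 markers each of T cells, B cells, epithelium and fibroblasts reached at most 0.0889 CPM, those of endothelium 0.574 CPM and those of neutrophils 3.23 CPM, and *Cd8a*, *Ms4a1*, *Epcam*, *Col1a2* and *Ly6g* were at 0. Control replicate 3 stood apart from the other controls by the length of the transcripts, as a median log2 difference of 0.61 for genes in the shortest of 10 length bins and -0.60 for those in the longest. Results that it moves are given with and without it. Without it the test called more of all tested genes: 5.16% with SNP100, 18.9% with SNP50, 29.5% with MSNP and 8.66% with HMSNP, and calls gained without it are to be read against these shares. Every sample title opens with a number that differs between the 5 groups, so that what this number stands for cannot be told apart from the treatment. No source used here says whether the 3 libraries of a group came from separate cultures, so that p-values measure the spread between these samples, which may be technical.

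**Figure D1:**
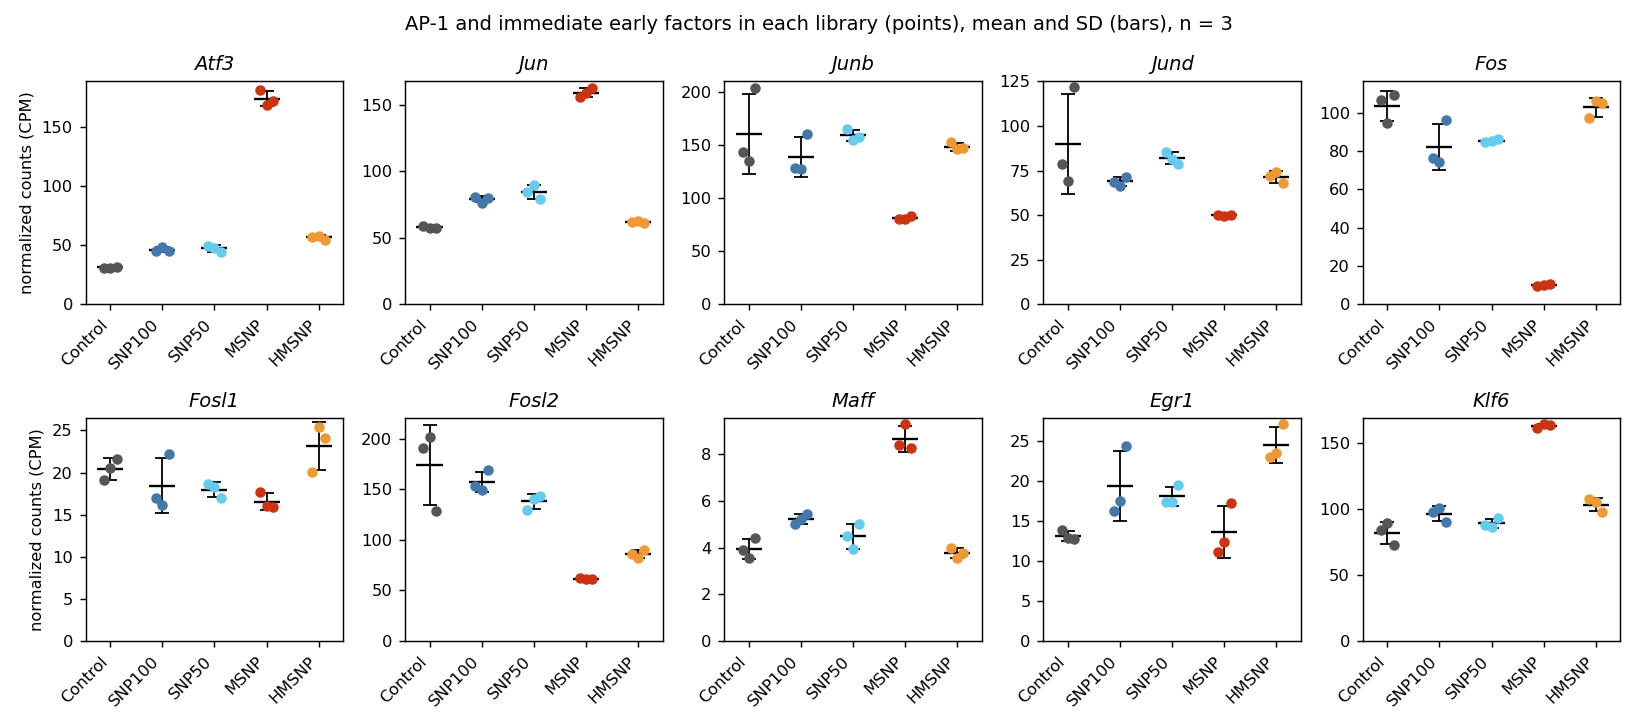
Normalized counts (CPM, y axis, linear from 0) of the 10 genes in each library (points) by group (x axis), with the mean and SD (bars, n = 3). *Atf3* reached 169 to 182 CPM in the MSNP-treated libraries against 30.8 to 31.6 CPM in the controls, and *Fos* 9.72 to 10.6 CPM against 94.5 to 109 CPM.

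The 250 bases before the start sites of *Atf3*, *Jun* and *Fos*, the most increased pair and the most decreased of the 10 genes with MSNP, are shown as the stretch where promoter motifs were searched. The start is that of the GENCODE vM39 canonical transcript on GRCm39, the sequences run 5′ to 3′ on the strand of the gene, and capitals mark the motif matches.
Atf3, chr1:190915538-190915787, minus strand: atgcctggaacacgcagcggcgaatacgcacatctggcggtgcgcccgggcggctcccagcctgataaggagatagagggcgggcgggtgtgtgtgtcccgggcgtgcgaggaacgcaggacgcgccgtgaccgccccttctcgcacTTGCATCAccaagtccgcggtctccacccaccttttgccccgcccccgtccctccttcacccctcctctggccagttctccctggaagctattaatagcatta
Jun, chr4:94940460-94940709, minus strand: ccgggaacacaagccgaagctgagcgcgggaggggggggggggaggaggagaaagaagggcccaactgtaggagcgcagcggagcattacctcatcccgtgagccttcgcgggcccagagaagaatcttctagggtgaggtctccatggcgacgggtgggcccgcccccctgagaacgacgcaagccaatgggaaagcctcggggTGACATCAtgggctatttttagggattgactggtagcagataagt
Fos, chr12:85520408-85520657, plus strand: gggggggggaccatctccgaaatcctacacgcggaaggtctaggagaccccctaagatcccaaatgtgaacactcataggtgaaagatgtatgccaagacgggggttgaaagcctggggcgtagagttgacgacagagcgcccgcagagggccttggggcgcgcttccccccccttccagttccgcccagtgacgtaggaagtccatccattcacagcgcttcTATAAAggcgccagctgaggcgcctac

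The motifs were searched on both strands in this window for 9 of the 10 genes, all but *Egr1*, and for 21770 protein-coding genes. The C/EBP-ATF composite element, TGATGNAA, through which ATF4 is known to act, was found in 3.39% of all promoters and in 1 of the 9, that of *Atf3*, where it lies on the opposite strand at -103 to -96 (position -1 is the base before the start). The Jun and ATF site TGACNTCA, which includes TGACGTCA, was found in 6.84% of all promoters and in 4 of the 9. They were *Jun*, as TGACATCA at -45 to -38, *Jund* at -214 to -207, *Maff* at -29 to -22 and *Klf6* at -112 to -105. The strict form TGACGTCA, held by 1.69% of all promoters, was in those of *Jund* and *Maff*. TATAAA was found in *Junb*, *Fos* and *Fosl1*, at -27 to -22 in *Fos*, and in 11.9% of all promoters. The AP-1 site TGACTCA (4.02% of all promoters) and the CArG box bound by SRF (1.40%) were in none of the 9 windows. The *Egr1* promoter and bases further from the starts were not searched, so sites there cannot be told from this. A match is a description of these letters only.

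*Atf3* (ENSMUSG00000026628) lies on the minus strand of chromosome 1, 190902493 to 190950241 in GRCm39. Its level was 30.8, 31.1 and 31.6 CPM in the controls, 45.4, 48.4 and 45.1 CPM with SNP100 and 49.7, 48.0 and 44.0 CPM with SNP50. It was 182, 169 and 172 CPM with MSNP and 57.2, 58.2 and 54.8 CPM with HMSNP. All 12 treated libraries lay above all controls, the HMSNP libraries lay above those of both nonporous particles, and the MSNP libraries lay above every other library. Against the controls the log2 fold change was 0.57 (SE 0.065, adjusted p = 0.000684) with SNP100, 0.60 (SE 0.065, adjusted p = 0.000477) with SNP50, 2.48 (SE 0.067, adjusted p = 2.63e-12) with MSNP and 0.86 (SE 0.065, adjusted p = 1.49e-06) with HMSNP. At the same dose of 200 µg/mL, *Atf3* was 3.07-fold lower with HMSNP than with MSNP (log2 difference -1.62, adjusted p = 1.84e-10). Control replicate 3 differed from the other controls by 0.03 on the log2 scale for this gene, and without it the 4 log2 fold changes were 0.58, 0.60, 2.50 and 0.87. When the model held only the 6 libraries of the contrast, the calls with SNP100 (adjusted p = 0.352) and SNP50 (0.343) were lost. In bulk RNA, a change of the level in every cell and a change in a fraction of the cells cannot be told apart, for *Atf3* or for any gene below.

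The Jun family moved apart. *Jun* (chromosome 4, 94937271 to 94940459, minus strand) encodes c-Jun, the AP-1 subunit phosphorylated by JNK, and had 59.0, 57.7 and 57.2 CPM in the controls. It had 80.5, 76.6 and 80.4 CPM with SNP100, 84.4, 89.7 and 79.0 CPM with SNP50, 156, 159 and 163 CPM with MSNP and 61.8, 62.7 and 61.5 CPM with HMSNP. The HMSNP libraries lay just above the controls and below those of every other particle, and the MSNP libraries were the highest. The log2 fold changes were 0.45 (SE 0.060, adjusted p = 0.00186), 0.54 (SE 0.060, adjusted p = 0.000477) and 1.46 (SE 0.061, adjusted p = 1.94e-10) for SNP100, SNP50 and MSNP, and 0.10 (SE 0.060, adjusted p = 0.325) for HMSNP. HMSNP was 2.57-fold below MSNP (adjusted p = 4.09e-10). As with *Atf3*, the calls with SNP100 (adjusted p = 0.492) and SNP50 (0.415) were lost with only 6 libraries in the model. The antisense gene *Junos* overlaps 528 exon bases of *Jun* and had at most 1.09 CPM on average in any group.

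*Junb* (chromosome 8, 85701113 to 85705359, minus strand) encodes a Jun protein that often counters c-Jun. Its levels were 143, 135 and 204 CPM in the controls, 128, 128 and 161 CPM with SNP100, 165, 154 and 158 CPM with SNP50, 80.8, 80.5 and 83.3 CPM with MSNP and 153, 146 and 147 CPM with HMSNP. The MSNP libraries lay below all others, and those of the other particles overlapped the controls. The log2 fold change with MSNP was -0.98 (SE 0.13, adjusted p = 3.84e-05). *Jund* (chromosome 8, 71151599 to 71153265, plus strand), the Jun gene that most cells express constantly, had 78.6, 69.3 and 122 CPM in the controls and 49.9, 49.6 and 50.1 CPM with MSNP. Its levels were 68.8, 66.2 and 71.6 CPM with SNP100, 85.5, 81.6 and 78.8 CPM with SNP50 and 71.9, 74.2 and 67.9 CPM with HMSNP. The MSNP libraries were again the lowest, with a log2 fold change of -0.85 (SE 0.15, adjusted p = 0.000485).

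For both genes the highest value of all was Control replicate 3, at 0.56 (*Junb*) and 0.72 (*Jund*) above the other controls on the log2 scale. *Jund* was not called with SNP100 (-0.38, adjusted p = 0.343) or HMSNP (-0.33, adjusted p = 0.181) in the model of all libraries. When Control replicate 3 was left out, these were -0.10 (adjusted p = 0.383) and -0.05 (adjusted p = 0.688). Leaving out Control replicate 2, the lowest control, gave calls with SNP100 (-0.54, adjusted p = 0.0453) and HMSNP (-0.47, adjusted p = 0.0161). SNP100 was also called with an offset for transcript length (-0.25, adjusted p = 0.0491). This held with the offset and without Control replicate 3 (-0.19, adjusted p = 0.0167). Without Control replicate 3, the decreases with MSNP were -0.76 (*Junb*, adjusted p = 3.12e-07) and -0.56 (*Jund*, adjusted p = 6.22e-07), and both remained called. Both genes share exon bases with a gene on the other strand, *Junb* 173 with *Prdx2* and *Jund* 877 with the noncoding *Gm11175*, and whether the counting used the strand is not given in the sources used here. *Prdx2*, a peroxide-reducing enzyme, had 184 CPM in the controls and 120 CPM with MSNP (log2 fold change -0.61, adjusted p = 0.0104), and *Gm11175* had 0.733 CPM or 0.807 CPM at most. The part of these neighbors in the *Junb* and *Jund* counts was not tested.

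The Fos family held the largest decrease. *Fos* (ENSMUSG00000021250, chromosome 12, 85520658 to 85524047, plus strand), the classic immediate early partner of c-Jun, had 107, 94.5 and 109 CPM in the controls and 9.72, 9.80 and 10.6 CPM with MSNP. It had 97.2, 106 and 105 CPM with HMSNP, 76.5, 74.4 and 96.3 CPM with SNP100 and 84.8, 85.4 and 86.2 CPM with SNP50. The MSNP libraries lay far below all others, the HMSNP libraries overlapped the controls, and the SNP50 libraries lay just below them. The log2 fold change was -3.37 with MSNP (SE 0.10, adjusted p = 1.11e-11) and -0.01 with HMSNP (SE 0.092, adjusted p = 0.969), and HMSNP exceeded MSNP by 10.2-fold (adjusted p = 1.46e-11). For SNP100 and SNP50 the values were -0.33 (SE 0.092, adjusted p = 0.143) and -0.28 (SE 0.092, adjusted p = 0.208), which were not called. DESeq2 called *Fos* with SNP100 (log2 fold change -0.32, adjusted p = 0.0349), as did edgeR without SNP100 replicate 3 (-0.46, adjusted p = 0.0207). With an offset for transcript length and without Control replicate 3, edgeR called *Fos* lower with SNP100 (-0.36, adjusted p = 0.00727) and SNP50 (-0.40, adjusted p = 0.00138).

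*Fosl2* (chromosome 5, 32292707 to 32315186, plus strand) encodes Fra-2, which lacks the strong activation domain of c-Fos. It had 191, 202 and 129 CPM in the controls, 154, 149.9 and 169 CPM with SNP100 and 129.9, 141 and 144 CPM with SNP50. It had 61.9, 61.5 and 61.3 CPM with MSNP and 86.3, 81.7 and 89.8 CPM with HMSNP. Both mesoporous groups lay below all other libraries, and of the 10 genes it alone was called lower with HMSNP in the model of all libraries. The log2 fold changes were -1.50 with MSNP (SE 0.13, adjusted p = 3.39e-07) and -1.02 with HMSNP (SE 0.12, adjusted p = 0.000177), and HMSNP lay 0.48 above MSNP (adjusted p = 0.0112). The call with HMSNP was lost with only 6 libraries in the model (adjusted p = 0.0780). *Fosl2* has the longest exons of the 10 genes, 10397 bases, and Control replicate 3 was 0.61 below the other controls on the log2 scale. Without that library *Fosl2* was also called lower with SNP100 (-0.32, adjusted p = 0.00393) and SNP50 (-0.51, adjusted p = 4.43e-05), which in the full model had -0.14 (adjusted p = 0.714) and -0.33 (adjusted p = 0.265).

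*Fosl1* (chromosome 19, 5497575 to 5505974, plus strand), which encodes Fra-1, differed least. It had 19.1, 20.6 and 21.6 CPM in the controls, 17.0, 16.2 and 22.2 CPM with SNP100, 18.6, 18.3 and 17.0 CPM with SNP50, 17.7, 16.0 and 15.9 CPM with MSNP and 20.01, 25.4 and 24.1 CPM with HMSNP. No contrast with the controls was called, and with MSNP the log2 fold change was -0.31 (SE 0.12, adjusted p = 0.0759). Between the mesoporous particles it was called, 0.49 higher with HMSNP (SE 0.12, adjusted p = 0.00685). *Fosl1* shares 1163 exon bases with *Ccdc85b* on the other strand, which had 25.0 CPM in the controls, 14.8 CPM with MSNP and 19.2 CPM with HMSNP, and its part in the *Fosl1* counts was not tested.

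*Maff* (chromosome 15, 79230821 to 79243276, plus strand) encodes a small Maf protein without an activation domain, which pairs with NRF2 and related factors. It was the lowest of the 10 genes, with 3.90, 3.56 and 4.40 CPM in the controls and 8.39, 9.28 and 8.27 CPM with MSNP. It had 4.99, 5.23 and 5.46 CPM with SNP100, 4.49, 3.94 and 5.02 CPM with SNP50 and 3.97, 3.55 and 3.78 CPM with HMSNP. The MSNP libraries lay above all others and the SNP100 libraries above all controls. Only MSNP was called (log2 fold change 1.13, SE 0.11, adjusted p = 1.67e-06), and SNP100 had 0.40 (adjusted p = 0.143), which became 0.48 (adjusted p = 0.0202) without Control replicate 3. HMSNP was 2.30-fold below MSNP (adjusted p = 9.44e-07). On the other strand *Maff* shares 416 exon bases with the noncoding *Gm56727*, which had at most 0.671 CPM on average in any group. Noncoding genes with no counts in these files also share exon bases on the other strand with *Maff* (92, *Gm62234*), *Junb* (145, *Gm65321*), *Fosl1* (241, *Gm59617*) and *Fosl2* (425, *Gm72529*), and their part was not tested.

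*Egr1* (chromosome 18, 34992876 to 34998049, plus strand) encodes a zinc finger activator induced through MAP kinases and SRF. Its order of the 5 groups by mean was unlike that of the other genes, though *Fosl1* had the same order among the particles. It had 13.8, 12.8 and 12.7 CPM in the controls, 16.2, 17.5 and 24.3 CPM with SNP100, 17.4, 17.4 and 19.4 CPM with SNP50, 11.1, 12.4 and 17.2 CPM with MSNP and 22.9, 23.5 and 27.0 CPM with HMSNP. All SNP100, SNP50 and HMSNP libraries lay above the controls, whereas the MSNP libraries lay on both sides of them. It was called with HMSNP alone (log2 fold change 0.90, SE 0.16, adjusted p = 0.0037), and had 0.56 (adjusted p = 0.154), 0.46 (adjusted p = 0.230) and 0.05 (adjusted p = 0.852) with SNP100, SNP50 and MSNP. DESeq2 also called SNP100 (0.57, adjusted p = 0.0302). HMSNP was 1.80-fold above MSNP (adjusted p = 0.00106).

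*Klf6* (chromosome 13, 5911481 to 5920393, plus strand), a Krüppel-like factor of activated macrophages, had 84.4, 89.1 and 72.9 CPM in the controls, 97.9, 101 and 90.2 CPM with SNP100 and 87.5, 86.5 and 93.3 CPM with SNP50. It had 161, 164 and 163 CPM with MSNP and 107, 105 and 97.5 CPM with HMSNP. The MSNP libraries were the highest, and the HMSNP and SNP100 libraries also lay above all controls. The log2 fold change was 0.99 with MSNP (SE 0.078, adjusted p = 1.58e-07) and 0.33 with HMSNP (SE 0.077, adjusted p = 0.0228), which was 0.25 (adjusted p = 0.00903) without Control replicate 3. The call with HMSNP was lost without HMSNP replicate 1 (adjusted p = 0.106), without HMSNP replicate 2 (adjusted p = 0.0919) and with only 6 libraries (adjusted p = 0.374). SNP100 and SNP50 had 0.23 (adjusted p = 0.260) and 0.12 (adjusted p = 0.612).

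**Figure D2:**
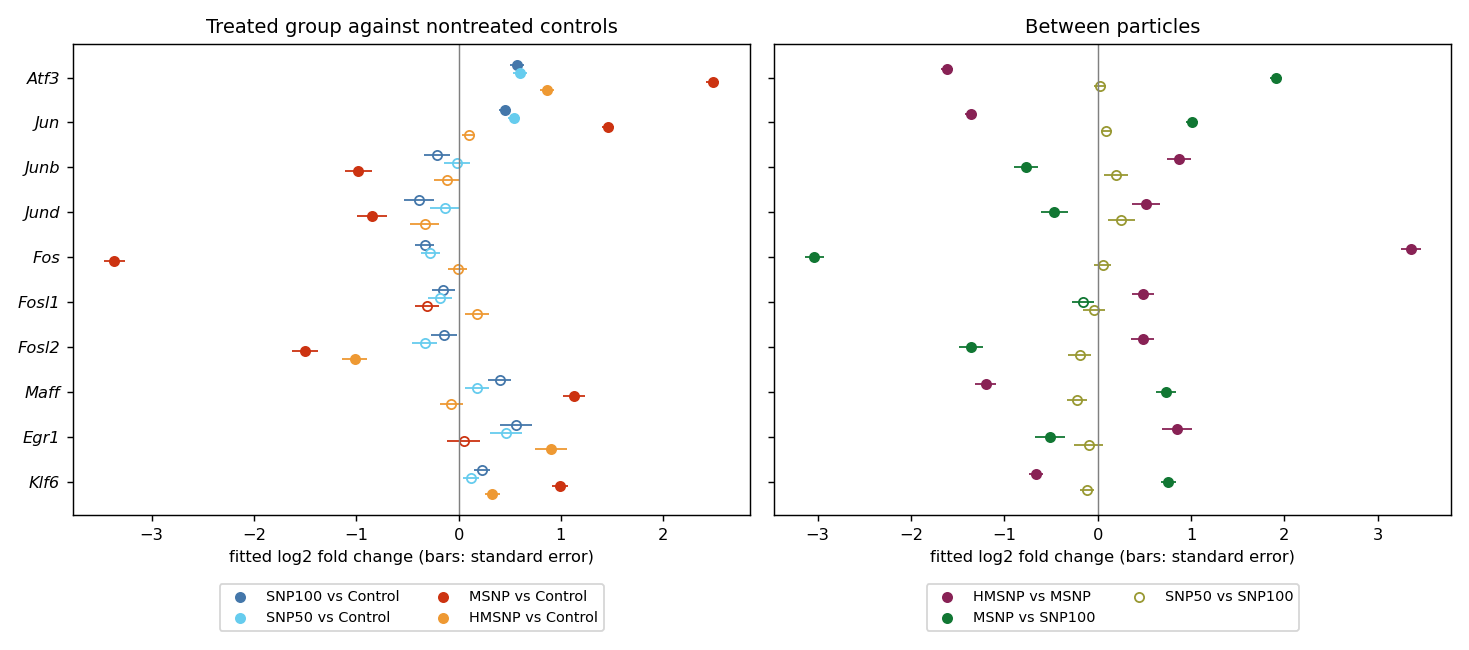
Fitted log2 fold change (x axis) of each gene (y axis) for each treated group against the controls (left) and between particles (right), with its standard error (bars). The standard error was derived from the F statistic of the test. Filled points were called (adjusted p under 0.05). The MSNP points reach from -3.37 (*Fos*) to 2.48 (*Atf3*), and all SNP50 vs SNP100 points lie between -0.22 and 0.25.

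Counted over the 10 genes, SNP100 called 2, both higher, where 0.912% of all tested genes were called (0.509% higher and 0.403% lower), and SNP50 called 2, both higher, where 1.41% were (0.454% higher and 0.958% lower). MSNP called 8, 4 higher and 4 lower, where 22.8% of all tested genes were called (11.8% higher and 11.0% lower). HMSNP called 4, of which *Atf3*, *Egr1* and *Klf6* were higher and *Fosl2* lower, where 5.16% were called (2.46% higher and 2.70% lower). The median log2 fold change of the 10 genes was 0.04, 0.05, -0.13 and 0.04 with SNP100, SNP50, MSNP and HMSNP, near the -0.02, 0.00, -0.05 and -0.04 of all tested genes, with increases and decreases on both sides of them. The libraries of 9 of the 10 genes did not overlap between MSNP and the controls, with *Egr1* as the exception, against 33.2% of all tested genes. With SNP100, SNP50 and HMSNP 5 genes each did not overlap the controls, against 12.5, 14.1 and 22.9% of all tested genes. These 4 contrasts share their controls, so that their values are set side by side only. The genes were chosen with earlier results of these data known, so the shares of all tested genes are a scale, not a test.

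Between particles, the contrasts set porosity, the hollow core and size beside each other, but none of these varied alone. Porosity and size differed together with dose. The paper also describes HMSNPs as low in density and distinct in surface composition. The hollow core cannot be told apart from these. All 10 genes were called between HMSNP and MSNP at the same dose, where 20.2% of all tested genes were called, with 6 higher and 4 lower in HMSNP (9.22% and 11.0% of all tested genes), and none of the 10 overlapped, against 45.3% of all tested genes that did not. The 4 that were lower, *Atf3*, *Jun*, *Klf6* and *Maff*, were those that rose with MSNP. The 6 that were higher were *Fos*, *Junb*, *Egr1*, *Jund*, *Fosl1* and *Fosl2*. The differences of *Jund* (0.52, adjusted p = 0.0196) and *Fosl2* (0.48, adjusted p = 0.0112) were among the smaller ones. Leaving out HMSNP replicate 2 took *Jund* to an adjusted p of 0.0656, and leaving out any of the 3 MSNP libraries took *Fosl2* to between 0.0507 and 0.0526.

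MSNP and SNP100, which have the same nominal diameter but were given at 200 and 50 µg/mL, differed in 9 of the 10 genes, 4 higher and 5 lower, where 17.9% of all tested genes were called (10.4% higher and 7.53% lower). The libraries of 8 genes did not overlap, against 45.6% of all tested genes. *Atf3* was 3.76-fold, *Jun* 2.01-fold, *Klf6* 1.69-fold and *Maff* 1.66-fold higher with MSNP, and *Fos* was 8.19-fold, *Fosl2* 2.56-fold and *Junb* 1.70-fold lower. *Jund* (log2 difference -0.47, adjusted p = 0.0384) and *Egr1* (-0.51, adjusted p = 0.0389) passed narrowly. *Jund* lost its call in 9 of 23 alternative settings and *Egr1* in 8 of 23, each of which left out 1 library. *Fosl1* had -0.16 (adjusted p = 0.429).

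SNP50 and SNP100, which differ in diameter and were given at 25 and 50 µg/mL, were not called different in any of the 10 genes by edgeR's quasi-likelihood test. The libraries of 2 genes did not overlap, *Jund* and *Fosl2*, against 23.9% of all tested genes. The lowest adjusted p was 0.903, 0 of the 10 had an unadjusted p under 0.05, and 0% of all tested genes were called, of which 867 had an unadjusted p under 0.05. *Atf3* differed by 0.03 (SE 0.064) and *Fos* by 0.05 (SE 0.092) on the log2 scale. *Jund*, whose SNP50 libraries lay above those of SNP100, had 0.25 (SE 0.15) and was called (adjusted p = 0.0489) when Control replicate 3, which enters this contrast only through the shared spread, was left out.

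Levels of different genes can be compared only per length, here as CPM per kilobase of exon. In the controls *Junb* had 67.6 ± 15.9 (SD, n = 3), *Jund* 53.9 ± 16.7 and *Fos* 43.9 ± 3.38. The ranges set by these SDs overlap for each neighboring pair, but within each control library *Junb* lay above *Jund* and *Jund* above *Fos*. Below them stood *Klf6* (18.4 ± 1.86), *Jun* (18.2 ± 0.291), *Fosl2* (16.7 ± 3.78), *Atf3* (12.8 ± 0.157), *Fosl1* (10.0 ± 0.621), *Egr1* (2.91 ± 0.140) and *Maff* (1.24 ± 0.133). *Klf6*, *Jun* and *Fosl2* did not differ beyond their spread. With MSNP the order was another one: *Atf3* moved from rank 7 to rank 1 of the 10 at 71.4 ± 2.701, followed by *Jun* at 49.97 ± 1.05, *Klf6* at 36.5 ± 0.370 and *Junb* at 34.2 ± 0.645. *Fos* moved from rank 3 to rank 8, at 4.26 ± 0.217. With HMSNP the first 3 were *Junb* (62.4 ± 1.51), *Fos* (43.7 ± 2.15) and *Jund* (42.8 ± 1.89), followed by *Atf3* (23.2 ± 0.718) and *Klf6* (23.1 ± 1.15). *Fos* and *Jund*, and *Atf3* and *Klf6*, did not differ beyond their spread there.

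The share of each gene in its family follows from these levels per length. *Jun* made up 13.5% ± 2.90 (SD, n = 3) of the summed Jun family level in the controls, with single libraries at 14.7, 15.5 and 10.1%. It made up 20.0% ± 1.27 with SNP100, 18.6% ± 1.08 with SNP50, 43.8% ± 0.340 with MSNP and 15.6% ± 0.274 with HMSNP. With MSNP *Jun* thus passed *Junb*, whose share was 30.0% ± 0.187 against 48.4% ± 0.492 in the controls. In exact two-sided permutation tests of 3 against 3 libraries, the *Jun* share differed from the controls at p = 0.1, the smallest such a test can give, for SNP100, SNP50 and MSNP, and at p = 0.2 for HMSNP. Over the 15 tests of the Jun family the adjusted values were 0.125 and 0.214, so that none passes 0.05 and the design could not have done so.

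In the Fos family *Fos* made up 62.1% ± 4.63 in the controls and 23.3% ± 1.40 with MSNP, where *Fosl1* held 44.4% ± 1.76 and *Fosl2* 32.3% ± 0.622. *Fosl1* itself was not called, and its share of 14.2% ± 1.25 in the controls stands beside the decreases of the other members. With HMSNP *Fos* held 69.0% ± 0.435 and *Fosl2* 13.1% ± 1.01, the lowest *Fosl2* share of the 5 groups. Control replicate 3 stood apart from the other controls in the *Jun* and *Fosl2* shares, and had the highest *Fos* and *Fosl1* shares of the controls. Without it the mean of the controls was 15.1% for *Jun*, 59.8% for *Fos*, 13.7% for *Fosl1* and 26.5% for *Fosl2*. The ratio of *Jun* to *Fos* per length was 0.415 ± 0.0329 in the controls (mean 0.430 without that library), 0.719 ± 0.0886 with SNP100, 0.730 ± 0.050 with SNP50, 11.7 ± 0.372 with MSNP and 0.446 ± 0.0212 with HMSNP. All libraries of SNP100, SNP50 and MSNP lay above the controls in this ratio, and those of HMSNP overlapped them. The exact two-sided p was 0.1, 0.1 and 0.1, the smallest possible, and 0.3 for HMSNP. The Fos shares and the ratio were chosen after their values were seen.

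**Figure D3:**
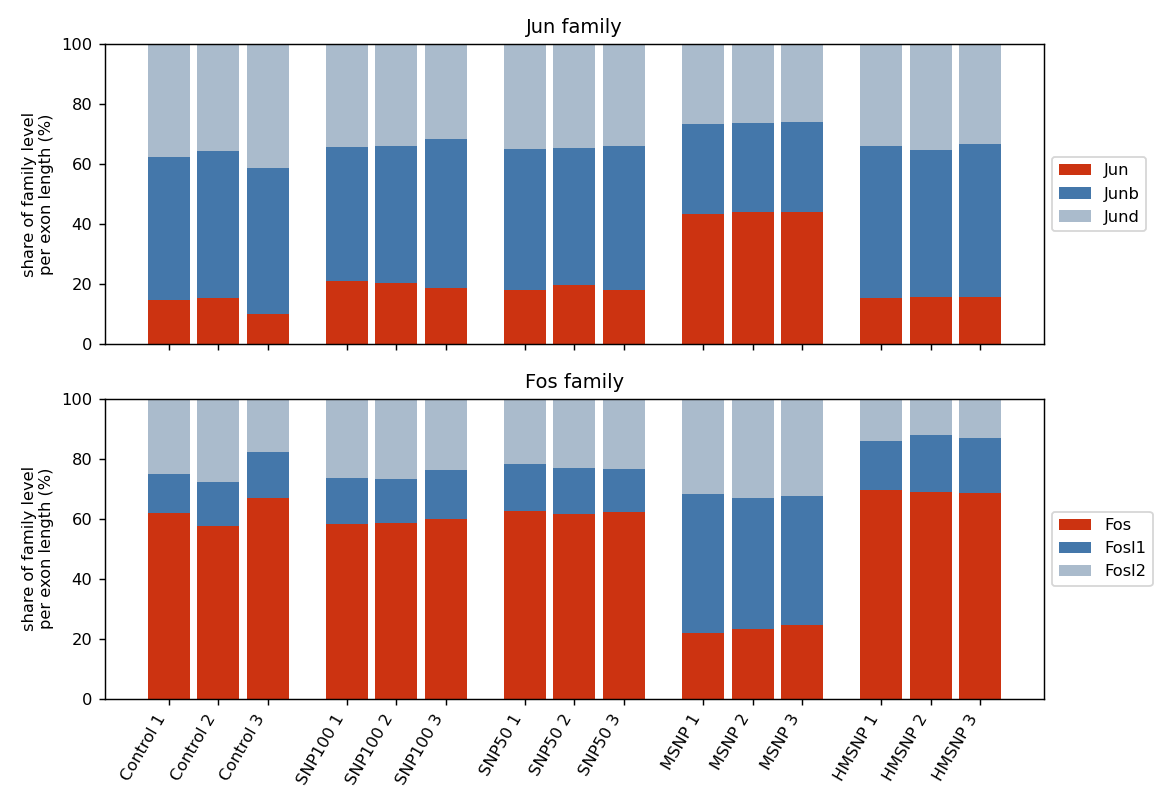
Share of each gene in the summed level of the Jun family (top) and the Fos family (bottom), as percent of CPM per kilobase of exon (y axis), in each library (bars, x axis). *Jun* holds 43.4 to 44.0% in the MSNP-treated libraries and 10.1 to 15.5% in the controls, and *Fos* holds 22.0 to 24.7% and 57.6 to 66.8%.

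Of 11 other AP-1 and Maf genes, all tested, 3 rose and 3 fell with MSNP, where 22.8% of all tested genes were called, with a median log2 fold change of 0.08 beside -0.05 for all tested genes. With SNP100, SNP50 and HMSNP 1 gene fell, where 0.912, 1.41 and 5.16% of all tested genes were called. It was *Jdp2*, which encodes a repressor that pairs with Jun. It had 81.1 ± 1.56 CPM in the controls, 62.1 ± 4.53 with SNP100, 59.1 ± 2.31 with SNP50, 38.7 ± 2.13 with MSNP and 46.1 ± 2.78 with HMSNP, and fell with all 4 particles (log2 fold changes -0.38, -0.46, -1.07 and -0.82, adjusted p at most 0.0186). *Fosb*, an immediate early Fos gene, fell with MSNP from 0.843 ± 0.0382 to 0.309 ± 0.160 CPM (-1.41, adjusted p = 0.00273). *Mafk*, a small Maf gene like *Maff*, rose with MSNP from 29.5 ± 1.73 to 57.1 ± 1.44 CPM (0.95, adjusted p = 3.53e-08). *Batf3*, also called with MSNP, had at most 4 counts in any library and at most 1 in the controls, so that no fold change is given.

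Of 17 other immediate early genes, 16 were tested and *Egr4* was not. With MSNP 11 fell and 3 rose, where 22.8% of all tested genes were called (median -0.73, all tested genes -0.05). With SNP50 and HMSNP 1 fell, where 1.41% and 5.16% were called, and with SNP100 none passed, where 0.912% were. *Egr3*, a relative of *Egr1*, fell with MSNP from 4.13 ± 0.626 to 0.952 ± 0.277 CPM (log2 fold change -2.10, adjusted p = 2.31e-06). The orphan nuclear receptor genes *Nr4a1* (4.52 ± 1.06 to 1.20 ± 0.0429 CPM, -1.91, adjusted p = 4.15e-07) and *Nr4a2* (4.15 ± 0.478 to 1.89 ± 0.119 CPM, -1.14, adjusted p = 5.10e-06) fell as well, as did *Ier2* (40.6 ± 11.4 to 17.8 ± 1.503 CPM, -1.19, adjusted p = 2.11e-05, and -0.93 without Control replicate 3). *Nr4a3* (1.12), *Ier5* (0.76) and *Egr2* (0.50) were the 3 that rose, and *Nr4a3* lost its call without Control replicate 3 (0.96, adjusted p = 0.112). *Nr4a3* was low, at 0.171 ± 0.0776 CPM in the controls (at most 9 counts) and 0.372 ± 0.0651 CPM with MSNP (at most 15 counts). Between HMSNP and MSNP 10 of the 16 were higher with HMSNP and 3 lower (median 0.49, all tested genes 0.00).

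The mRNAs of 20 MAP kinases, SRF and their cofactors, which act upstream, were all tested. With MSNP 4 rose and 6 fell, where 22.8% of all tested genes were called (median -0.05, as for all tested genes). None passed with SNP100 or SNP50, where 0.912% and 1.41% were called, and 1 of the 20 rose with HMSNP, near the 5.16% of all tested genes. *Elk3*, a partner of SRF that represses until it is phosphorylated, fell with MSNP from 111 ± 3.15 to 35.7 ± 0.761 CPM (log2 fold change -1.64, adjusted p = 1.59e-10). *Map2k3*, a kinase of p38, fell from 292 ± 47.3 to 186 ± 3.53 CPM (-0.65, adjusted p = 4.23e-05, and -0.50 without Control replicate 3). The actin-regulated SRF coactivator genes *Mrtfa* (59.0 ± 11.4 to 95.9 ± 3.32 CPM, 0.70, adjusted p = 0.000169, and 0.56 without Control replicate 3) and *Mrtfb* (25.4 ± 11.9 to 51.6 ± 4.01 CPM, 1.03, adjusted p = 0.00726, and 0.70 without it) rose. *Srf* itself was not called (-0.11, adjusted p = 0.250). These are mRNA levels, and the activity of the kinases was not measured in these files.

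Of 17 known targets of AP-1 and Egr factors, all tested, 4 rose and 6 fell with MSNP (median -0.28, all tested genes -0.05), where 22.8% of all tested genes were called. With HMSNP 4 rose and 2 fell (median 0.32, all tested genes -0.04), where 5.16% were called. With SNP100 1 rose and 2 fell (median -0.16, all tested genes -0.02), where 0.912% were called, and with SNP50 3 fell (median -0.22, all tested genes 0.00), where 1.41% were called. *Ptgs2*, which encodes the prostaglandin-forming enzyme COX-2, had 42.6 ± 8.95 CPM in the controls and fell to 25.4 ± 4.73 with SNP100, 23.6 ± 1.91 with SNP50 and 10.6 ± 0.515 with MSNP (log2 fold changes -0.74, -0.85 and -2.00, adjusted p at most 0.033). It had 49.6 ± 6.46 CPM with HMSNP (0.22, adjusted p = 0.378). *Mmp12*, the macrophage elastase gene, rose with MSNP from 0.481 ± 0.195 to 7.996 ± 0.706 CPM (4.02, adjusted p = 4.15e-08). *Hbegf*, a growth factor gene, had at most 3 counts in each control library and 1.15 ± 0.191 CPM with MSNP, and *F3*, the tissue factor gene, had at most 1 and 0.150 ± 0.0373 CPM. Both were called with MSNP, and no fold change is given for them.

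The ATF4 arm of the stress response, which is known to act upstream of *Atf3*, went 2 ways. Of its 8 genes, all tested, 7 rose and 1 fell with MSNP (median 0.80, all tested genes -0.05), where 22.8% of all tested genes were called. With HMSNP 6 fell and 0 rose (median -0.92, all tested genes -0.04), where 5.16% were called. With SNP100 2 rose and 2 fell, where 0.912% were called, and with SNP50 1 rose and 3 fell, where 1.41% were. *Ddit3*, which encodes the stress factor CHOP, had 9.73 ± 0.545 CPM in the controls, 15.2 ± 0.524 with SNP100, 14.8 ± 2.05 with SNP50, 51.2 ± 2.31 with MSNP and 5.97 ± 0.414 with HMSNP. All 4 contrasts were called, with log2 fold changes of 0.65, 0.61, 2.39 and -0.70. *Atf3*, in contrast, rose in all 4. *Trib3*, a pseudokinase gene induced by CHOP, fell with HMSNP from 20.1 ± 1.88 to 3.07 ± 0.311 CPM (-2.71, adjusted p = 1.53e-09) and rose with MSNP (1.33). *Chac1*, which encodes a glutathione-degrading enzyme, fell with HMSNP from 7.26 ± 0.353 to 0.909 ± 0.228 CPM (-2.99, adjusted p = 6.26e-09) and rose with MSNP (0.65). *Atf4* mRNA was lower with HMSNP (-0.89, adjusted p = 2.21e-05) and higher with MSNP (0.44, adjusted p = 0.00162). *Ppp1r15a*, which encodes the phosphatase subunit GADD34, had 1.56 with MSNP (adjusted p = 3.31e-10) and 0.06 with HMSNP (adjusted p = 0.634).

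Over these 5 lists, leaving out Control replicate 3 kept 45 of 48 calls with MSNP, 15 of 15 with HMSNP, 8 of 8 with SNP100 and 9 of 9 with SNP50, and changed the direction of none of them. The 3 lost were *Batf3*, *Nr4a3* and the kinase gene *Map3k8*. It added 3, 4, 7 and 20 calls, beside the higher shares of all tested genes called without it.

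**Figure D4:**
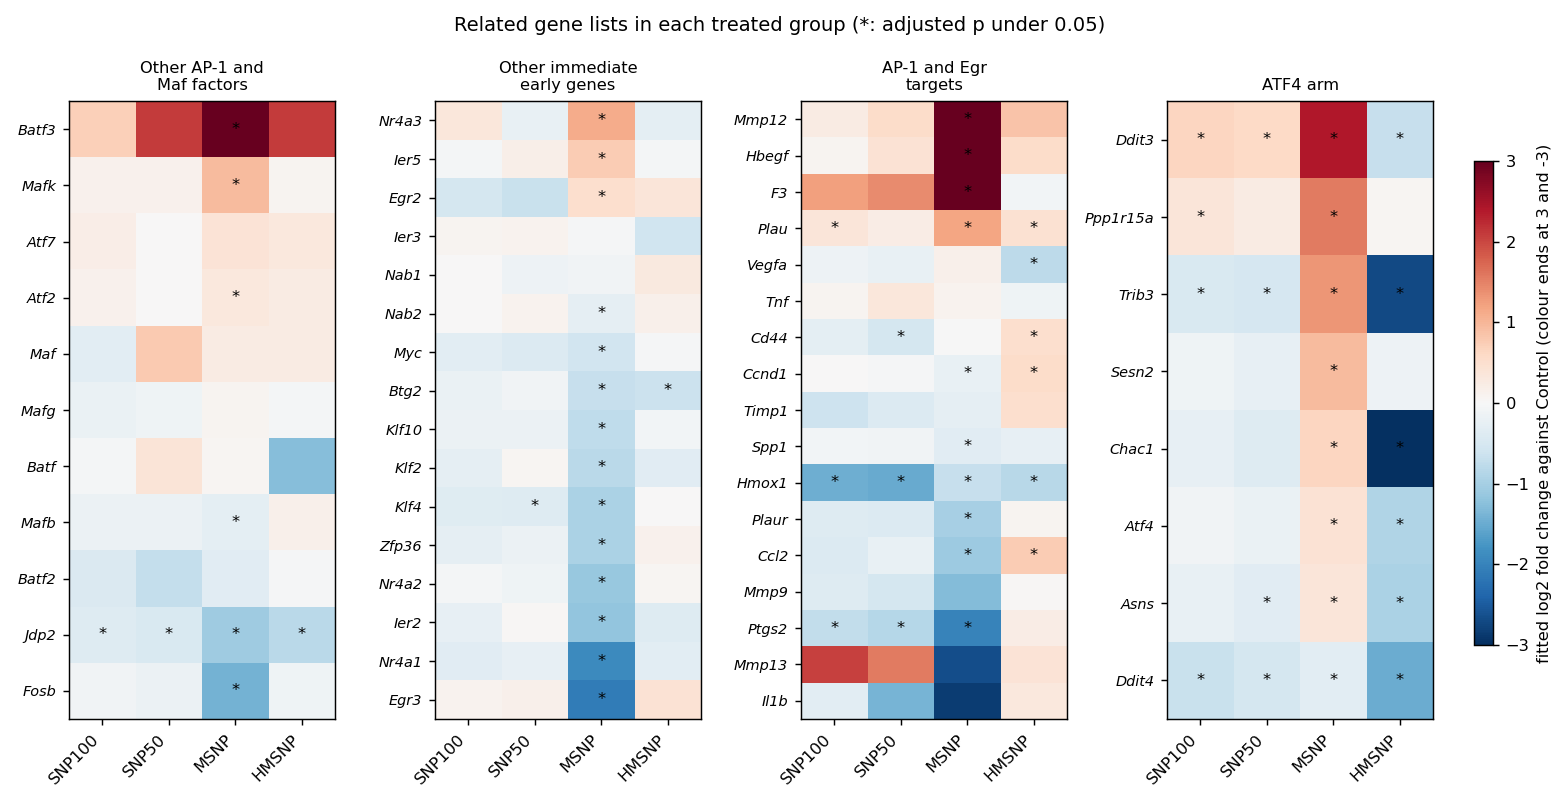
Fitted log2 fold change against the controls (color, ending at 3 and -3) of the related gene lists (rows) in each treated group (columns). Asterisks mark an adjusted p under 0.05. With MSNP 11 of 16 other immediate early genes were lower and 7 of 8 ATF4 arm genes higher, and with HMSNP 6 of the 8 were lower. *Batf*, *Batf3*, *Mmp13*, *Hbegf* and *F3* had at most 3 counts per control library, so that their colors carry no fold change.

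The genes whose log2 CPM followed *Atf3* most closely over the 15 libraries, among 11540 genes with a mean of at least 1 CPM, were *Pmp22* (Pearson r = 0.994), *Plk2* (0.989), *Ccrl2* (0.987), *Por* (0.985) and *Ptpn1* (0.985). *Pmp22*, a membrane protein gene, had 35.9 CPM in the controls, 60.2, 57.0 and 64.0 CPM with SNP100, SNP50 and HMSNP and 292 CPM with MSNP. *Plk2*, a kinase gene, had 3.91, 6.39, 5.69, 10.3 and 49.6 CPM in the controls and with SNP100, SNP50, HMSNP and MSNP. Those closest to *Jun* were *Hvcn1* (0.994), the proton channel gene, *Zfp503* (0.994), *Naglu* (0.993), *Pianp* (0.993) and *Gas6* (0.992). *Gas6*, which encodes a ligand of receptors for apoptotic cells, had 47.5 CPM in the controls, 75.1 and 78.5 CPM with SNP100 and SNP50, 280 CPM with MSNP and 47.9 CPM with HMSNP. Like *Jun*, it was near the controls with HMSNP. The 15 points share their libraries and form groups, and the MSNP libraries were the highest for *Atf3* and *Jun*, so that r is a description only. Without Control replicate 3, 3 of the 5 closest to *Atf3* and 1 of the 5 closest to *Jun* stayed among the first 5.

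The deviation of Control replicate 3 followed length in some of the 10 genes. Its log2 difference from the mean of the other controls was positive for the short *Jund* (0.72) and *Junb* (0.56), negative for the long *Fosl2* (-0.61), and between -0.25 and 0.24 for the other 7 genes. *Fos* and *Fosl1*, as short as *Junb*, had 0.12 each, below the 0.61 of their length bin. Replicates differed by a mean chi-square per gene of 192 and 226 for the control pairs with Control replicate 3, where 1 would be sampling noise. Control replicates 1 and 2 also differed, by 73.1, against 4.95 to 15.3 for pairs within a treated group. The controls thus stayed more spread than the treated groups when Control replicate 3 was left out. *Atf3* (0.03) and *Jun* (-0.03) were the members that Control replicate 3 moved least.

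**Figure D5:**
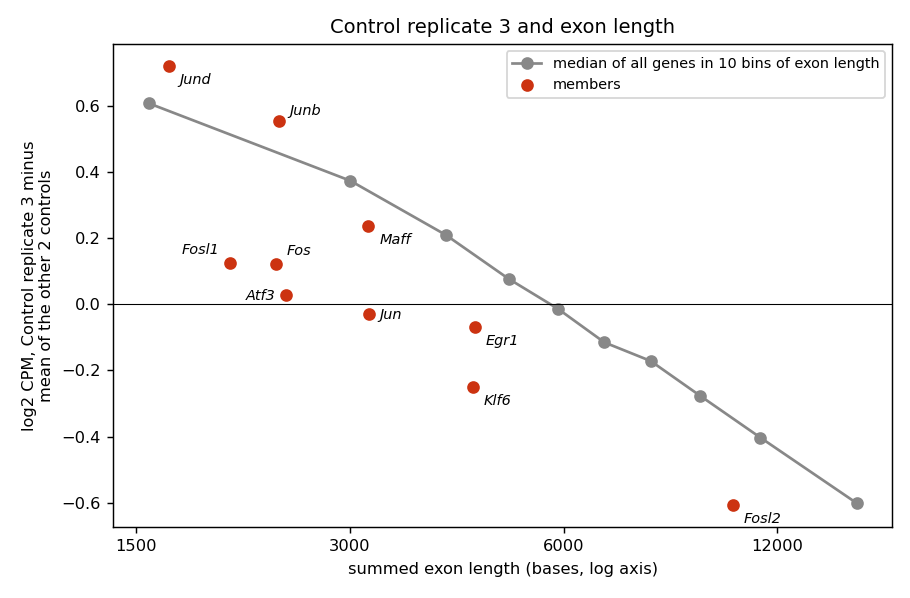
Log2 CPM of Control replicate 3 minus the mean of the other 2 controls (y axis) against summed exon length (x axis, log scale), as the median of all genes with a mean log2 CPM above 1 in 10 bins (grey) and for the 10 genes (red). The bins fall from 0.61 to -0.60, with *Jund* (0.72) and *Fosl2* (-0.61) near the ends.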

How the data were processed

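The series holds 15 RNA sequencing libraries of RAW 264.7 cells in 5 groups of 3. The authors isolated poly(A) RNA, made directional libraries and deposited raw counts, 1 whole number per gene and library, without normalization. The submitters' processing notes name STAR 2.7.9a, cutadapt 1.16, featureCounts 1.6.3 and GRCm39. The annotation and the strand setting of the counting are not given in the sources used here, so that genes sharing bases on opposite strands are named. Groups came from the sample labels, and doses from the study's methods.

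GENCODE vM39 on GRCm39 gave gene symbols, lengths and starts for 56630 of the 57186 identifiers. Of all 57186 identifiers, 30400 had 0 counts in every library. Genes with a summed count of at least 10 (19839) were tested in R 4.3.3 with edgeR 4.0.16 (TMM, 1 model of all 15 libraries, quasi-likelihood test, Benjamini-Hochberg adjustment, threshold 0.05), where the study used DESeq2. With 29369934 to 42617812 counts per library, the counts of the 10 genes ranged from 123 in a library for *Maff* to 7850 for *Junb*, so that counting error was largest, relative to the level, for *Maff*. The SE of a log2 fold change was its absolute value divided by the square root of the F statistic of the quasi-likelihood test. CPM used TMM-adjusted totals, and likeness used log2 CPM with a prior count of 2. Shares per length were compared by exact permutation. Promoters were the 250 bases before the canonical start, in 9 of the 10 genes (not *Egr1*).

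The members and gene lists were chosen with earlier results of these data known. 1 gene of the list of AP-1 and Egr targets is not reported here and was left out of its counts. Named from each list were up to 4 genes with the largest absolute log2 fold change among those called against the controls, and the genes most like *Atf3* and *Jun*. *Nr4a3*, *Ier5*, *Egr2*, *Srf* and *Atf4* were named after their values were seen. Ddit3 has 2 identifiers, of which the one with counts was used. The same replicate numbers were not taken to pair the libraries. Alternatives were DESeq2 1.42.0, RLE normalization, the filterByExpr filter, no filter, 6 libraries per comparison, the replicate number as a block, leaving out each library and, as an offset, removal of each library's trend with exon length (lowess, span 0.3). This offset without Control replicate 3, and the lists and shares without that library, were added after seeing the data. The steps were tested on simulated counts.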

Additional observations from a re-analysis of the deposited data

How the results depend on the processing

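Of the 35 called results of single genes, taken over 23 alternatives each, 776 kept their direction and call and 29 kept the direction but lost the call. All 8 calls with MSNP against the controls held in all of them. Of the results not called, those of SNP50 against SNP100 left aside, 527 stayed so, 19 gained a call and 29 changed sign. In SNP50 against SNP100, *Jund* gained a call without Control replicate 3 (adjusted p = 0.0489). The number of genes called was 2, 2, 8, 4, 10, 9 and 0 (SNP100, SNP50, MSNP and HMSNP against the controls, HMSNP against MSNP, MSNP against SNP100, SNP50 against SNP100). With 6 libraries only it became 0, 0 and 2 for SNP100, SNP50 and HMSNP, where fewer samples estimate the spread. For SNP100 it became 5 with DESeq2, 4 with the length offset and 6 with the offset and without Control replicate 3, and for SNP50 4 with both. Leaving out 1 library gave 2 to 4 (SNP100, 4 without Control replicate 3), 2 to 3 (SNP50), 8 to 9 (MSNP), 3 to 5 (HMSNP), 9 to 10 (HMSNP against MSNP), 7 to 9 (MSNP against SNP100) and 0 to 1 (SNP50 against SNP100). The samples were not treated as paired, since in every comparison the lowest correlation of same-numbered deviations was under 0.1 (-0.362 to 0.0016). Single correlations reached 0.469 (number 2, SNP50 and Control). With 3 libraries a group this check cannot show that pairing was absent. The fit with the replicate number as a block called the same numbers, 2, 2, 8, 4, 10, 9 and 0.

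Signs changed only for genes that were not called. *Junb* with SNP50 had 0.033 with the length offset and without Control replicate 3, 0.0021 with the block, and -0.12 to 0.19 when 1 library was left out. *Junb* with HMSNP had 0.078 with the offset, 0.11 with the offset and without that control, and -0.21 to 0.095. *Jund* with SNP50 ranged from -0.29 to 0.14 and *Egr1* with MSNP from -0.14 to 0.19. *Fos* with HMSNP had 0.0049 with DESeq2 and with RLE, 0.0015 with filterByExpr, 0.0079 without a filter, 0.16 with the offset, 0.052 with the offset and without that control, and -0.052 to 0.052. *Maff* with HMSNP had 0.063, 0.029 and -0.12 to 0.014 in the last 3 settings, and *Klf6* with SNP50 had -0.018 with the offset and without that control. Not divided by length, the *Jun* share rose by 35.5 percentage points with MSNP (30.3 per length) and differed by -32.8 between HMSNP and MSNP (-28.2), and leaving out 1 library gave 28.7 to 31.4 and -28.4 to -28.0. Of the 5 genes most like *Atf3* and *Jun*, 3 and 1 stayed without Control replicate 3. Apart from the numbers of samples, the cause of these changes was not tested.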
